A study of Mus musculus with 30 samples.

Results

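Aminoacyl-tRNA synthetases are the enzymes that attach each amino acid to its tRNA. The set described here was chosen with earlier results of these data known. Its rows were taken by gene symbol: a single letter followed by ars, with or without a final digit, plus Eprs, Farsa and Farsb. This gave 37 of the 49585 rows of the expression table, 20 for cytosolic enzymes and 17 for mitochondrial enzymes, whose symbols end in 2. RNA was sequenced from 8-cell mouse embryos of the strain label BDF1 x BDF1, after knockdown of Yy1 with the siRNA numbered 1 and after control knockdown, with 2 libraries in each group. Yy1 encodes the zinc finger transcription factor YY1, and the comparison asks which transcripts differ when embryos reach this stage with little of it. All embryos were cultured in KSOM medium, and total RNA was made into libraries with a stranded SMART-Seq kit. A knockdown lowers a transcript and leaves the gene intact, and how many embryos went into a library is not stated. The series holds 30 samples, and the other 26, among them nucleosome maps and YY1 binding profiles, were not analysed here.

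Cells keep separate sets of synthetases for their translation systems. The cytosolic enzymes serve the ribosomes that read most nuclear mRNAs, and the mitochondrial enzymes are encoded in the nucleus, imported, and serve the mitochondrial ribosomes. Several cytosolic enzymes sit together in the multisynthetase complex, and the transcription factor ATF4 raises many of the cytosolic genes when amino acids are short.

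Levels are given in FPKM, in which fragments are divided by gene length and library size, so that levels of different genes can be set side by side. Fragment numbers, here and below, are estimates recovered from the steps between FPKM values. By this estimate the libraries held 34074291 and 29302489 fragments after Yy1 knockdown and 34429515 and 31405476 after control knockdown. Yy1 itself stood at 5.89 and 7.98 FPKM in Yy1 knockdown libraries and at 77.7 and 71.2 FPKM in control libraries, a log2 fold change of -3.26 with a limma adjusted p of 0.0556. All 10 markers of the 8-cell embryo passed a mean of 1 FPKM, and they summed to 875 and 797 FPKM after Yy1 knockdown and 943 and 923 FPKM after control knockdown. Of the markers of other cells, 3 of 18 for cumulus and granulosa cells, 1 of 15 for sperm and 0 of 10 for blood passed. The cumulus and granulosa list summed to 101 and 99.98 FPKM after Yy1 knockdown and 121 and 102 FPKM after control knockdown, most of it Nr5a2, and Inha, Has2, Ptx3 and Fshr were at 0 in every library. Amhr2 of that list went the other way from the sum, with 7.80 and 7.30 FPKM after Yy1 knockdown and 5.35 and 4.74 FPKM after control knockdown (log2 fold change 0.50, unadjusted limma p 0.0362, adjusted p 0.541). The sperm list summed to 3.72 and 6.99 FPKM after Yy1 knockdown and 4.29 and 5.99 FPKM after control knockdown, and the blood list to 1.46 and 1.75 FPKM after Yy1 knockdown and 1.43 and 0.605 FPKM after control knockdown. The part of other cells in the results was not tested. Libraries of a group resembled each other about as much as those of the other group, with Pearson correlations of log2 levels across genes of 0.966 within Yy1 knockdown, 0.969 within control knockdown and 0.959 to 0.97 across.

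No synthetase transcript passed the test. Among cytosolic genes, 14 of 20 had a higher mean after Yy1 knockdown, against 53.2% of all genes tested above a log2 fold change of 0. Of the 13 mitochondrial genes whose mean reached 1 FPKM, 10 had a lower mean after Yy1 knockdown, against 46.8% below 0. Of all 17 mitochondrial genes 13 had a lower one, against 45.0% of genes below 0 with no filter on level. Differences were tested with limma on log2(FPKM + 1) over the 12120 genes whose mean reached 1 FPKM, which took in all 20 cytosolic genes and 13 mitochondrial genes. At an adjusted p of 0.05 limma called 0 of the 33 synthetases and 0% of all genes tested, so nothing can be read from the members' count. At an unadjusted p under 0.05 there was 1 synthetase higher after Yy1 knockdown, Nars, and 0 lower, against 4.22% of all genes higher and 4.69% lower. Other settings called a few genes but 0 synthetases: 4 of 6677 genes (0.0599%) where the mean reached 5 FPKM, 15 of 8565 protein-coding genes (0.175%), and 13 of 12117 genes (0.107%) with limma-voom on recovered fragments. On this scale the differences of weakly expressed genes come out too small. Whether replicates came from separate collections of embryos is not stated, so a p-value reflects only how much these libraries vary, which may be technical. In these bulk samples, fewer cells of a type and less RNA per cell cannot be told apart.

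**Figure D1:**
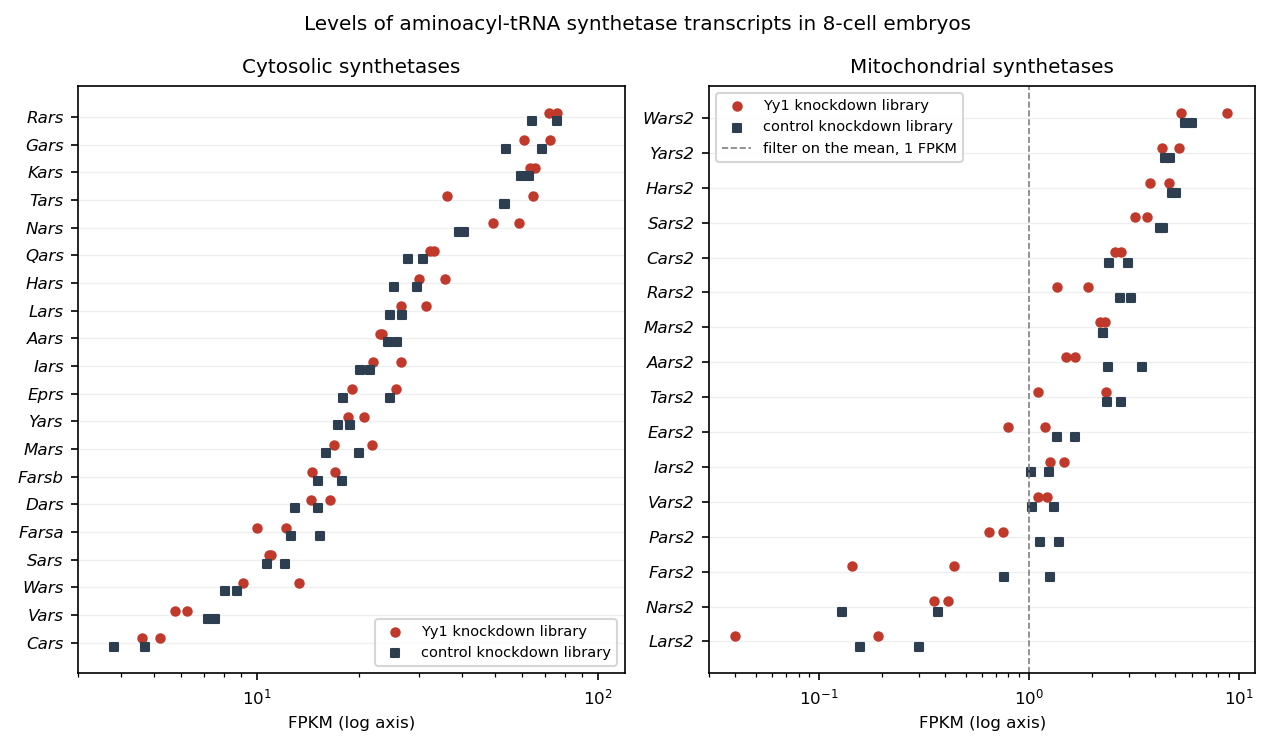
Levels of 36 synthetase transcripts in FPKM (log axes), cytosolic on the left and mitochondrial on the right, ordered by mean level. Each point is 1 library, circles for Yy1 knockdown and squares for control knockdown, and the dashed line marks the filter of 1 FPKM on the mean. Mean levels run from 4.58 to 72.1 FPKM in the cytosolic class and from 0.172 to 6.42 FPKM in the mitochondrial class, and in 8 mitochondrial genes both circles lie left of both squares.

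Cytosolic transcripts were the more abundant. Their median was 22.2 FPKM, and the class median stood above 77.1% of all genes tested. The median of the 17 mitochondrial genes was 2.25 FPKM, and that of the 13 above the filter stood above 24.0% of all genes tested. In 16 of 16 pairs of enzymes for the same amino acid the cytosolic gene had the higher mean, with a median ratio of 9.52. Eprs, which charges both glutamate and proline, was set against both Ears2 and Pars2, and the 2-subunit phenylalanine enzyme was left out of the pairs. The ratio was smallest for tryptophan, where Wars exceeded Wars2 by 1.53-fold, and for cysteine, where Cars exceeded Cars2 by 1.71-fold. It was largest for asparagine (Nars over Nars2, 149-fold) and leucine (Lars over Lars2, 158-fold), whose mitochondrial genes had few fragments.

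The mitochondrial class held the synthetases with the lowest ratios of Yy1 knockdown to control, and also the highest. These were 0.290 for Fars2 and 1.53 for Nars2, both below the filter and with few fragments. Both Yy1 knockdown libraries lay below both controls in 8 of the 17 genes (47.1%), against 18.9% of all genes tested. That share covers only genes above the filter, and 4 of the 17 were below it. Among the 13 above the filter the count was 6, against 17.9% of the 6241 genes in the same range of mean levels. Both knockdown libraries lay above both controls in 1 mitochondrial gene, Iars2, against 21.8% of all genes. The median log2 fold change of the 13 was only -0.03, beside 0.02 over all genes tested and 0.04 over genes of that range, since the other 7 lay near or above 0. A log2 fold change below 0 was found in 10 of the 13, against 46.3% of genes of that range. Depth was limited here: genes above the filter had 89 to 891 fragments in a library, and the remaining 4 had 9 to 135.

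Aars2, the mitochondrial alanyl-tRNA synthetase, had 1.50 and 1.66 FPKM in Yy1 knockdown libraries and 3.44 and 2.38 FPKM in control libraries. Both knockdown libraries were lower than both controls, and the controls were the pair further apart. The means were 1.58 ± 0.115 FPKM after Yy1 knockdown and 2.91 ± 0.754 FPKM after control knockdown (SD, n = 2 each), from 171 and 163 fragments against 397 and 250. Its log2 fold change was -0.59 ± 0.26 (SE, limma adjusted p = 0.584). In RefSeq's annotation of GRCm38.p6 the gene spans 45503515 to 45520843 on chromosome 17.

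Rars2, the mitochondrial arginyl-tRNA synthetase, had 1.91 and 1.37 FPKM in Yy1 knockdown libraries and 3.07 and 2.73 FPKM in control libraries. The groups did not overlap, with means of 1.64 ± 0.381 FPKM after Yy1 knockdown and 2.90 ± 0.238 FPKM after control knockdown (SD, n = 2 each). Its log2 fold change was -0.57 ± 0.24 (SE, limma adjusted p = 0.578), the smallest p of the mitochondrial class. The gene lies on chromosome 4 from 34614957 to 34660167.

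Tars2, for threonine, had 2.34 and 1.11 FPKM after Yy1 knockdown and 2.75 and 2.36 FPKM after control knockdown. One knockdown library was far below the controls and the other all but level with the lower control. Sars2, for serine, had 3.21 and 3.65 FPKM after Yy1 knockdown and 4.38 and 4.22 FPKM after control knockdown, with replicates close together in both groups. Ears2, for glutamate, had 0.797 and 1.19 FPKM after Yy1 knockdown and 1.67 and 1.37 FPKM after control knockdown. In these 3 genes the groups did not overlap, and the log2 fold changes were -0.42 ± 0.31, -0.26 ± 0.20 and -0.34 ± 0.28 (SE), with limma adjusted p values of 0.713, 0.722 and 0.74. The value of Tars2 was -0.09 without Yy1 knockdown replicate 2 and -0.75 without replicate 1. That of Ears2 was -0.58 with a pseudocount of 0.1 and -0.65 with limma-voom, and -0.20 without Yy1 knockdown replicate 1.

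Hars2, the mitochondrial histidyl-tRNA synthetase, had 3.77 and 4.64 FPKM after Yy1 knockdown and 5.003 and 4.82 FPKM after control knockdown. The groups were apart by little, at a log2 fold change of -0.19 ± 0.20 (SE, limma adjusted p = 0.804). The annotated spans of Hars and Hars2 meet: on chromosome 18 Hars spans 36766528 to 36783205 and Hars2 36783202 to 36792562, an overlap of 4 bases. The strand setting of the counting is not given, so fragments at the shared end cannot be assigned with certainty.

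Of the genes under the filter, Pars2 and Fars2 also had both knockdown libraries below both controls. Pars2, for proline, had 0.645 and 0.750 FPKM after Yy1 knockdown and 1.13 and 1.39 FPKM after control knockdown. Fars2, the single-chain phenylalanyl-tRNA synthetase of mitochondria, had 0.442 and 0.145 FPKM after Yy1 knockdown and 0.765 and 1.26 FPKM after control knockdown. Fars2 rested on 32 and 9 fragments after Yy1 knockdown and 56 and 84 after control knockdown. Without the filter their log2 fold changes were -0.41 and -0.64, with limma adjusted p values of 0.797 for each. Nars2 (0.413 and 0.353 FPKM after Yy1 knockdown, 0.129 and 0.370 FPKM after control knockdown) and Lars2 (0.0397 and 0.191 FPKM after Yy1 knockdown, 0.157 and 0.302 FPKM after control knockdown) overlapped.

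The other mitochondrial transcripts gave no separation downwards. Wars2, the most abundant, had 8.80 and 5.29 FPKM after Yy1 knockdown and 5.58 and 6.01 FPKM after control knockdown. Its higher mean came from a single knockdown library, and the log2 fold change of 0.21 became -0.11 without Yy1 knockdown replicate 1. Yars2, for tyrosine, had 4.31 and 5.20 FPKM after Yy1 knockdown and 4.46 and 4.69 FPKM after control knockdown. Iars2, for isoleucine, had 1.47 and 1.26 FPKM after Yy1 knockdown and 1.02 and 1.25 FPKM after control knockdown, with a narrow gap between the groups. Cars2, Mars2 and Vars2 had log2 fold changes of -0.01 to -0.00387 and overlapping groups.

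**Figure D2:**
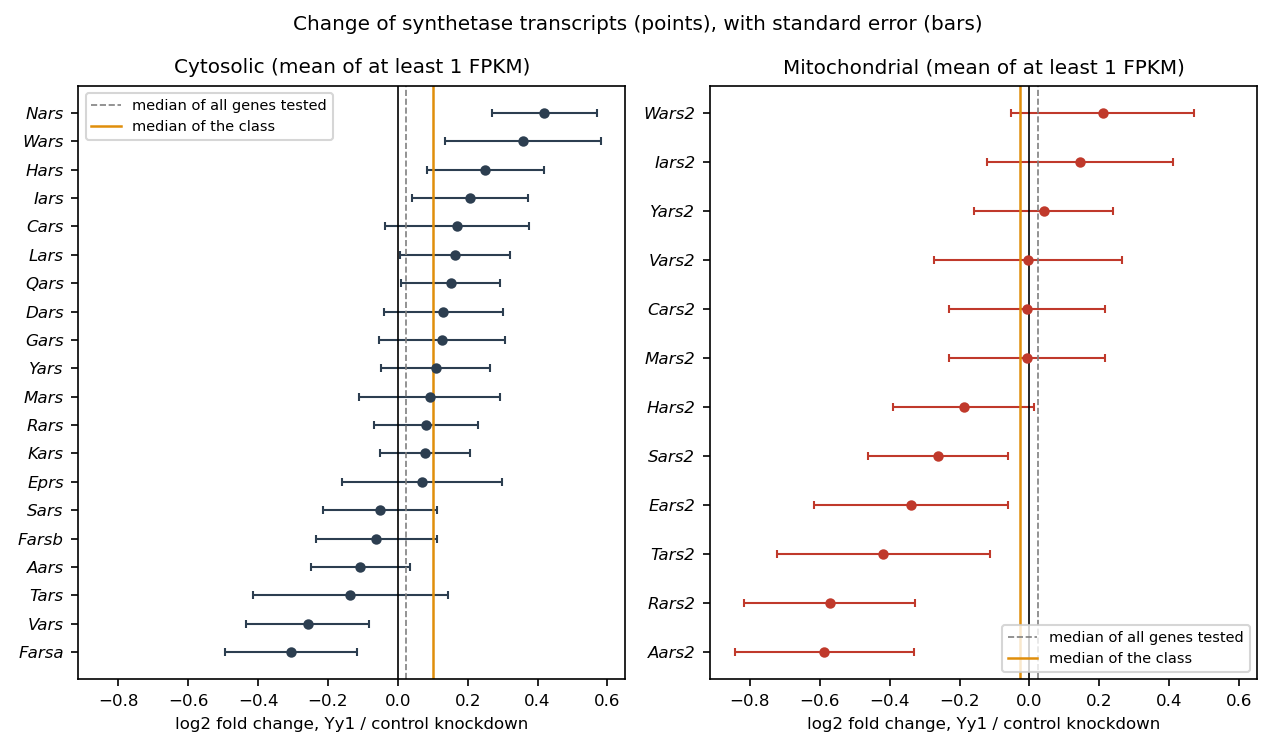
Log2 fold change of Yy1 knockdown over control knockdown on the log2(FPKM + 1) scale (horizontal axis) for 20 cytosolic and 12 mitochondrial synthetases above the filter. Points are limma estimates, bars 1 standard error, the solid coloured line the class median (0.10 cytosolic, -0.03 mitochondrial) and the dashed line the median of all genes tested (0.02). The lowest points are Aars2 and Rars2, and the highest is Nars.

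On the log2(FPKM + 1) scale, Aars2 and Rars2 were at -0.59 and -0.57. Of the mitochondrial transcripts above the filter, only these lay further from 0 there than every cytosolic one. With a pseudocount of 0.1, Tars2 (-0.62) and Ears2 (-0.58) did so too, beside 0.43 for Nars, the furthest cytosolic one. On the log2(FPKM + 1) scale the cytosolic log2 fold changes ran from -0.31 to 0.42. Both Yy1 knockdown libraries lay above both controls in 6 of 20 genes (30%), against 20.9% of the 5900 genes in the same range of mean levels, and below in 3 (15%), against 21.5%. A log2 fold change below 0 was found in 6 of the 20, against 49.6% of genes of that range. The median log2 fold change was 0.10, beside 0.00179 over those genes. By library, values were set against the control mean on the log2 scale, and beside all genes tested rather than those of the range. By that comparison the excess was seen in 1 library. The median cytosolic gene stood at 0.22 in Yy1 knockdown replicate 2, beside -0.000911 over all genes tested. In Yy1 knockdown replicate 1 it stood at 0.035, no higher than the 0.041 over all genes tested. The median was accordingly 0.22 without Yy1 knockdown replicate 1, 0.04 without Yy1 knockdown replicate 2, 0.05 without control replicate 1 and 0.14 without control replicate 2.

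Nars, the asparaginyl-tRNA synthetase, had the smallest p of all synthetases. It stood at 49.3 and 58.6 FPKM in Yy1 knockdown libraries and at 40.6 and 39.3 FPKM in control libraries. Both knockdown libraries were above both controls, which were close together, and the means were 54.0 ± 6.63 FPKM after Yy1 knockdown and 39.96 ± 0.897 FPKM after control knockdown (SD, n = 2 each). The log2 fold change was 0.42 ± 0.15 (SE), the unadjusted p from limma 0.0343 and the adjusted p 0.535, at rank 777 of the 12120 genes by p. The gene lies on chromosome 18 from 64499655 to 64516515.

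Wars, the tryptophanyl-tRNA synthetase, had 9.12 and 13.3 FPKM after Yy1 knockdown and 8.06 and 8.75 FPKM after control knockdown. Both knockdown libraries were above both controls, but they also differed from each other by more than the group means did. Its log2 fold change was 0.36 ± 0.22 (SE, limma adjusted p = 0.674), and 0.11 without Yy1 knockdown replicate 2. Wars lies near the targeted gene, on chromosome 12 from 108860030 to 108894175, 39.9 kb from Yy1 at 108792945 to 108820148.

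Hars, for histidine, had 30.03 and 35.8 FPKM after Yy1 knockdown and 25.4 and 29.6 FPKM after control knockdown. Iars, for isoleucine, had 21.9 and 26.6 FPKM after Yy1 knockdown and 21.4 and 20.1 FPKM after control knockdown. Qars, for glutamine, had 32.2 and 33.1 FPKM after Yy1 knockdown and 27.9 and 30.8 FPKM after control knockdown. These 3 also had both knockdown libraries above both controls, at log2 fold changes of 0.25, 0.21 and 0.15 with limma adjusted p values of 0.685, 0.735 and 0.776.

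Farsa, Vars and Aars went the other way. Farsa, the catalytic subunit of the cytosolic phenylalanyl-tRNA synthetase, had 10.03 and 12.2 FPKM after Yy1 knockdown and 12.6 and 15.3 FPKM after control knockdown. Its partner subunit Farsb had 14.5 and 16.96 FPKM after Yy1 knockdown and 17.8 and 15.2 FPKM after control knockdown. The groups were apart for Farsa, at a log2 fold change of -0.31 ± 0.19, and overlapped for Farsb, at -0.06 ± 0.17 (SE). Vars, for valine, had 6.25 and 5.77 FPKM after Yy1 knockdown and 7.21 and 7.55 FPKM after control knockdown. Aars, for alanine, had 23.3 and 22.96 FPKM after Yy1 knockdown and 24.3 and 25.7 FPKM after control knockdown. Their log2 fold changes were -0.26 and -0.11, and the limma adjusted p values of Farsa, Vars and Aars were 0.674, 0.69 and 0.848.

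The most abundant synthetase transcripts lay close to their controls. Rars, for arginine, had 71.9 and 76.2 FPKM after Yy1 knockdown and 64.1 and 76.3 FPKM after control knockdown. Gars, for glycine, had 60.9 and 72.5 FPKM after Yy1 knockdown and 68.7 and 53.7 FPKM after control knockdown. Both overlapped, with log2 fold changes of 0.08 and 0.13. Kars, for lysine, had 65.7 and 63.3 FPKM after Yy1 knockdown and 59.5 and 62.7 FPKM after control knockdown, without overlap but at a log2 fold change of only 0.08 ± 0.13 (SE). Gars and Kars are known to supply both compartments from a single gene, and without them the cytosolic median was still 0.10. Kars-ps1, a pseudogene of Kars, was listed at 0 in all 4 libraries.

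Tars, for threonine, had the widest gap between replicates of the cytosolic class. Its 36.1 and 64.7 FPKM after Yy1 knockdown lay on either side of the 53.2 and 53.4 FPKM after control knockdown. The log2 fold change of -0.14 became 0.28 without Yy1 knockdown replicate 1. The groups also overlapped for Eprs (19.0 and 25.7 FPKM after Yy1 knockdown, 17.9 and 24.6 FPKM after control knockdown), Sars (11.02 and 10.9 FPKM after Yy1 knockdown, 10.7 and 12.1 FPKM after control knockdown) and Cars (4.60 and 5.22 FPKM after Yy1 knockdown, 3.81 and 4.71 FPKM after control knockdown). Lars, Dars, Yars and Mars overlapped likewise, at log2 fold changes of 0.09 to 0.16.

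All 8 enzymes of the multisynthetase complex (Eprs, Iars, Lars, Mars, Qars, Rars, Kars and Dars) had a higher mean after Yy1 knockdown, by log2 fold changes of 0.07 to 0.21 with a median of 0.11, against 53.2% of all genes tested above 0. In 3 of the 8 both knockdown libraries lay above both controls, against 20.9% of genes in the range of cytosolic levels. Outside the complex 6 of 12 were higher and 6 lower, with a median of 0.03. No member of the complex passed the test, and Eprs, Mars and Rars were lower once 1 library was left out. Of 13 genes listed as ATF4 responsive 9 had a higher mean, with a median log2 fold change of 0.11, beside 5 of the 7 others, with a median of 0.08. Atf4 itself stood at 68.1 and 65.4 FPKM after Yy1 knockdown and 78.6 and 79.2 FPKM after control knockdown.

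Set side by side for the same amino acid, the mitochondrial enzyme had the lower log2 fold change in 12 of 13 pairs above the filter, with a median difference of -0.18. The count was 8 without Yy1 knockdown replicate 2, 11 without replicate 1 and 10 without either control library. It was 11 with a pseudocount of 0.1 and 11 with limma-voom on recovered fragments. With that pseudocount Iars2 was at 0.24 and Iars at 0.21, the reverse of their order with a pseudocount of 1. In 6 pairs the mitochondrial gene had a lower and the cytosolic gene a higher mean after Yy1 knockdown, in 4 both were lower and in 3 both were higher. The ratio of cytosolic to mitochondrial level was higher in both Yy1 knockdown libraries than in both controls in 5 pairs and lower in 1, valine. No share over other gene pairs was computed, so neither this count nor the 12 of 13 can be judged against other genes. For arginine, Rars exceeded Rars2 by 37.7-fold and 55.7-fold after Yy1 knockdown and by 20.9-fold and 27.9-fold after control knockdown. For histidine, Hars exceeded Hars2 by 7.96-fold and 7.70-fold after Yy1 knockdown and by 5.07-fold and 6.13-fold after control knockdown. For alanine the ratios were 15.6 and 13.8 after Yy1 knockdown and 7.06 and 10.8 after control knockdown. Summed over all members, the mitochondrial class came to 37.9 and 35.5 FPKM after Yy1 knockdown and 42.5 and 41.4 FPKM after control knockdown. The cytosolic sums were 544 and 632 FPKM after Yy1 knockdown and 538 and 557 FPKM after control knockdown. The mitochondrial sum was thus 6.30% ± 0.953 of the cytosolic sum after Yy1 knockdown and 7.67% ± 0.325 after control knockdown (SD, n = 2 each). An exact permutation test of 2 libraries against 2 cannot give a two-sided p under 0.333, so no test was made of this share.

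**Figure D3:**
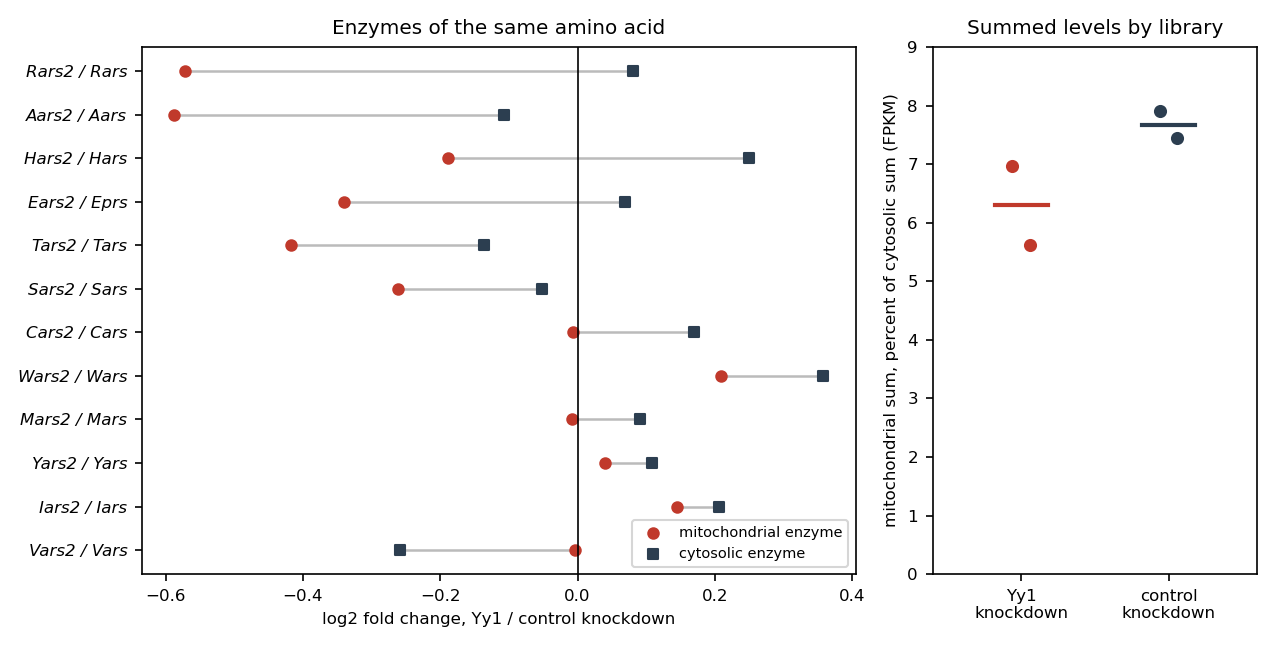
Left, log2 fold change of Yy1 knockdown over control knockdown (horizontal axis) for the mitochondrial (circles) and cytosolic (squares) enzyme of each of 12 amino acid pairs; the circle lies left of the square in 11. Right, summed mitochondrial level as a percent of the summed cytosolic level, with 1 point a library and a line at the mean: 6.97 and 5.62 after Yy1 knockdown, 7.90 and 7.44 after control knockdown.

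YY1 is known to bind DNA at a motif with the core GCCAT, which reads ATGGC on the opposite strand, so the promoters of the members were searched on both strands. RefSeq promoter windows of 300 bases (250 before and 50 after the start site, GRCm38.p6) were at hand for 27 of the 37 genes. The core was in 8 of 14 mitochondrial and 6 of 13 cytosolic genes, beside 44% of 6866 tested genes and 40.5% of all 32851 promoters. In Aars2, Ears2, Lars2, Rars2, Tars2, Wars2 and Yars2 it read ATGGC and began 10 to 44 bases after the start site. All cytosolic matches began before the start site, as did that of Vars2 and others of Rars2. The longer AGATGGC, which contains the core and reads on the opposite strand as GCCATCT, was in 3 mitochondrial genes and 1 cytosolic gene, beside 8.81% of tested genes and 6.4% of all promoters. The sequences of these 4 genes are shown, from 100 bases before to 30 after the start site on the plus strand, because they share the longer motif, which is in capitals.
Aars2, chr17:45506741-45506870: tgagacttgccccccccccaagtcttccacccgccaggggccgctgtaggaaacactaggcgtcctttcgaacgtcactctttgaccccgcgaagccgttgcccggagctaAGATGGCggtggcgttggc
Farsa, chr8:84856886-84857015: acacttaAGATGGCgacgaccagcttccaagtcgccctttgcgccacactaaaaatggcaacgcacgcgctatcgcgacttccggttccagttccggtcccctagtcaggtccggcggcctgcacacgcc
Wars2, chr3:99140990-99141119: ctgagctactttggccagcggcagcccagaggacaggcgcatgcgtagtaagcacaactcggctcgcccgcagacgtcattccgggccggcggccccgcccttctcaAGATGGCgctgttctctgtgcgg
Yars2, chr16:16302865-16302994: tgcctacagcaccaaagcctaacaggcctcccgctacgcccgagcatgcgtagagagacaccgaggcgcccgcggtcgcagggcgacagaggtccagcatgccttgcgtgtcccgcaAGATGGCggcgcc

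The motif began 12, 8 and 18 bases after the start site in Aars2, Wars2 and Yars2 and 93 bases before it in Farsa. Aars2 had another window, not shown, in which the motif began 21 bases after the start site. The windows of Aars2 and Wars2 lay inside the annotated spans of these genes, which begin at 45503515 and 99140107. The log2 fold changes of these genes were -0.59 for Aars2, -0.31 for Farsa, 0.04 for Yars2 and 0.21 for Wars2, but the groups overlapped for Yars2 and Wars2. Without 1 library these became -0.07 for Yars2 (Yy1 knockdown replicate 2 left out) and -0.11 for Wars2 (Yy1 knockdown replicate 1 left out). A match is a description of these letters, and whether YY1 binds there was not analysed here.

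Other genes of the pathway were read from lists, and limma called 0 in each of them. Of the 3 scaffold proteins of the multisynthetase complex, Aimp2 had 16.7 and 22.9 FPKM after Yy1 knockdown and 16.5 and 15.1 FPKM after control knockdown, while Aimp1 and Eef1e1 overlapped, and the median log2 fold change was -0.04. Among 7 tested synthetase-like, editing and amidation factors, 4 were lower and 3 higher by mean, with a median of -0.08. Prorsd1, related to the editing domain of bacterial prolyl-tRNA synthetases, stood out there with 2.32 and 1.09 FPKM after Yy1 knockdown and 5.88 and 4.14 FPKM after control knockdown. Its log2 fold change was -1.18 ± 0.31 (SE, limma adjusted p = 0.502), further from 0 than that of any synthetase above the filter. Gatc, a subunit of the mitochondrial amidotransferase that makes glutaminyl-tRNA, had 7.12 and 7.03 FPKM after Yy1 knockdown and 5.08 and 6.20 FPKM after control knockdown.

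Among 22 tested genes of tRNA maturation and export, 10 were lower and 12 higher by mean, with a median log2 fold change of 0.05. Over all genes tested 53.2% were above 0. Both knockdown libraries lay above both controls in 8 of the 22, against 21.8% of all genes, and below in 3, against 18.9%. Elac2, which trims the ends of tRNA precursors, had 28.04 and 33.7 FPKM after Yy1 knockdown and 22.1 and 20.9 FPKM after control knockdown. Ssb, the La protein that binds new tRNA transcripts, had 36.4 and 43.8 FPKM after Yy1 knockdown and 52.4 and 67.4 FPKM after control knockdown. They lay on different sides of the controls without overlap, at log2 fold changes of 0.49 and -0.56 with a limma adjusted p of 0.532 each.

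Of 11 mitochondrial translation factors tested, 9 had a higher and 2 a lower mean after Yy1 knockdown, with a median log2 fold change of 0.19, against 53.2% of all genes tested above 0. In 4 of the 11 both knockdown libraries lay above both controls, against 21.8% of all genes. Tufm, the mitochondrial elongation factor that brings charged tRNA to the ribosome, had 54.4 and 56.96 FPKM after Yy1 knockdown and 41.8 and 40.07 FPKM after control knockdown. Its log2 fold change was 0.43 ± 0.13 (SE, limma adjusted p = 0.521). In the cytosol, 8 of 10 elongation and termination factors had a higher mean, with a median of 0.08. Eef2, which moves the ribosome along the mRNA, had 721 and 747 FPKM after Yy1 knockdown and 596 and 575 FPKM after control knockdown, at a log2 fold change of 0.32 ± 0.12 (SE, limma adjusted p = 0.548). Of 21 tested genes of the ATF4 and amino acid response, 13 were higher and 8 lower by mean, with a median of 0.03. Phgdh, the first enzyme of serine synthesis, had 41.5 and 47.5 FPKM after Yy1 knockdown and 55.4 and 60.6 FPKM after control knockdown, at -0.38 ± 0.15 (SE, limma adjusted p = 0.556).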

How the data were processed

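Levels of 4 RNA libraries of 8-cell embryos, 2 after Yy1 knockdown and 2 after control knockdown, were read from a table of FPKM deposited by the authors. The sample titles give group and replicate number. Per the submitters' processing notes the tools were HISAT2 2.2.1, Bowtie2 2.4.3, featureCounts, Trim Galore 0.6.7, bedtools, SAMtools 1.4.1 and R 4.0.3, with no role stated for any, and the build was mm10. Annotation release, strand setting and treatment of multi-mapping reads are not stated there, so overlapping genes and gene copies are uncertain.

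Genes whose mean reached 1 FPKM were fitted on log2(FPKM + 1) with limma 3.58.1 (R 4.3.3), with group as the only term, a mean-variance trend, Benjamini-Hochberg adjustment over all 12120 genes and a threshold of 0.05. Fragments were recovered from the steps between FPKM values (whole within 0.02 fragments), and depth limits counting error only. The fit and the recovery were tested on simulated data. Tables were joined with Python 3.11.15, numpy 2.4.6 and pandas 2.3.3. All 37 symbols matched RefSeq genes of GRCm38.p6, the source of coordinates and promoter sequences.

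The members and gene lists were chosen with earlier results of these data known. Class values cover every member, but 1 mitochondrial gene is not reported here by itself. The other members could be named, with full values for the 6 of smallest p and the 4 most abundant of each class, their partners, and up to 4 genes of each other list by smallest p. The alternatives were quantile normalization, median-ratio scaling, a pseudocount of 0.1, a filter at 5 FPKM or none, protein-coding genes alone, limma-voom on recovered fragments, a replicate block, each library left out and Gars and Kars left out. Counts by class and pair, and the named pathway genes, were added to these settings after seeing the data.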

Additional observations from a re-analysis of the deposited data

How the results depend on the processing

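No synthetase was called under any alternative run. Over all genes tested the count called was 0, but 4 with a filter of 5 FPKM, 15 with protein-coding genes alone and 13 with limma-voom, and Yy1 then passed, at log2 fold changes of -3.26 (limma adjusted p = 0.0108), -3.26 (0.000545) and -3.45 (5.14e-05). The mitochondrial median was -0.14 with no filter, which brings in all 17 genes, -0.060 with quantile normalization, and 0.21 with a filter of 5 FPKM, which leaves Wars2 alone, so that 0 of 1 was lower and 1 of 1 pair had the mitochondrial gene below. Leaving out 1 library at a time gave mitochondrial medians of -0.12 to -0.067 and cytosolic medians of 0.035 to 0.22; 12 to 16 cytosolic genes were higher and 8 to 9 of 13 mitochondrial genes lower. With all 17, 8 had both knockdown libraries below both controls under median-ratio scaling and 9 under quantile normalization. With the replicate block the medians were unchanged at 0.10 and -0.03 and 0 genes were called; same-numbered libraries deviated together with a correlation of only 0.0994, so the numbers were not taken as pairs.

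Genes changed sign when 1 library was left out, most of them near 0 with all libraries, but also Cdh1 (-0.27), Mtg1 (0.23) and Wars2 (0.21). The log2 fold changes ranged from -0.55 to 0.28 for Tars, -0.15 to 0.29 for Eprs, -0.17 to 0.047 for Farsb, -0.047 to 0.30 for Gars, -0.086 to 0.27 for Mars, -0.043 to 0.20 for Rars and -0.13 to 0.030 for Sars. They ranged from -0.12 to 0.10 for Cars2, -0.033 to 0.017 for Mars2, -0.097 to 0.089 for Vars2, -0.11 to 0.53 for Wars2 and -0.072 to 0.15 for Yars2. Outside the synthetases they ranged from -0.17 to 0.041 for Aimp1, -0.096 to 0.023 for Eef1e1, -0.013 to 0.48 for Mtg1, -0.55 to 0.012 for Cdh1, -0.10 to 0.21 for Bmpr1b and -0.27 to 0.42 for Odf2. Without a change of sign, the range was -0.75 to -0.087 for Tars2, -0.48 to -0.20 for Ears2, -0.31 to -0.067 for Hars2, -0.79 to -0.39 for Aars2, -0.44 to -0.18 for Farsa, 0.13 to 0.37 for Hars, 0.072 to 0.34 for Iars and 0.11 to 0.61 for Wars; Ears2 was -0.58 and Tars2 -0.62 with a pseudocount of 0.1, and -0.65 and -0.63 with limma-voom. The cause was not tested.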
